A study of Homo sapiens with 24 samples.

Results

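The MYC and MAX network is the group of DNA-binding proteins, with their partners, that either switch on or hold back genes carrying the short DNA element called the E-box. The 10 members described here are MYC, MAX, MXI1, MXD1, MXD3, MXD4, MNT, MLX, MGA and MYCBP. They were chosen by gene symbol out of the 58174 genes that each table lists, and each symbol was found once in every table. The study lowered IGF2BP1, an RNA-binding protein of embryonic and tumour cells, in human cancer cell lines, of which the 4 in these tables are analysed here. Per the labels these are A549 (lung), ES2 (ovary), MV3 (melanoma) and PANC1 (pancreas). Cells received either control siRNA (siC) or a pool of siRNAs against IGF2BP1 (siI1), and RNA was taken 72 h later, or 96 h later in PANC1. Line and harvest time can therefore not be told apart for PANC1. Each of the 8 groups had 3 libraries, which the study's methods call biological replicates, and total RNA was sequenced after removal of ribosomal RNA.

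MYC is a helix-loop-helix leucine zipper factor that binds the E-box as a dimer with MAX and drives growth genes, above all those of ribosome production and metabolism. The MXD proteins, among them MXI1, and MNT compete for MAX, bind the same element and bring in the SIN3 corepressor with its histone deacetylases. MLX is a MAX-like partner for some of these repressors and for the glucose-sensing factors MLXIP (MondoA) and MLXIPL (ChREBP), MGA takes MAX into a Polycomb complex, and MYCBP binds the MYC protein itself. IGF2BP1 is known for binding the coding region of the MYC mRNA and shielding it from cleavage, and MYC is one of its classical targets.

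The element itself reads CACGTG and is the same on both strands. It was looked for in the RefSeq promoter windows of build GRCh38.p14, which run from 250 bases before to 50 bases after each listed transcript start. Of the members, 9 had at least 1 window, 15 windows in all, and the element was found in 3 of them, those of MXD4, MNT and MLX. Across all 35116 windows, 7.26% held it. These 3 stretches are printed because the element lies in the promoters of network members themselves, with the E-box in capitals and 30 bases each, ahead of the transcript start.
MXD4, chr4:2262330-2262359, minus strand: gggccgggccacCACGTGctgttgctaagc
MNT, chr17:2401236-2401265, minus strand: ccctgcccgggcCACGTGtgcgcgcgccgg
MLX, chr17:42567038-42567067, plus strand: gcgggcgcgggtCACGTGggcacgccaccc
The E-box starts 238 bases before the transcript start in MXD4, 193 in MNT and 50 in MLX. A list of 61 genes known to be activated by MYC is used further on. Of these, 49 had a window and 27 of the 49 held the element (55.1%), against 8.77% of all 27305 genes with a window. Stretches of 4 of them show how the element sits in the genes whose values are given further on.
CDK4, chr12:57752394-57752423, minus strand: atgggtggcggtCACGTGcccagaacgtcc
LDHA, chr11:18394464-18394493, plus strand: cagcccgactcaCACGTGggttcccgcacg
HSPD1, chr2:197500345-197500374, minus strand: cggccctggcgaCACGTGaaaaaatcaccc
SLC7A5, chr16:87869620-87869649, minus strand: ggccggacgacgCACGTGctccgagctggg
A match is a description of these letters in the window. Binding was not measured.

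Levels are in FPKM, reads scaled by gene length and library size, and changes are differences of log2(FPKM + 0.5), siI1 minus siC, with their standard error (SE). For each member it is said whether its siC and siI1 libraries overlapped. The share of all genes without overlap is not given here, so this is a description. Knockdown held in all lines. IGF2BP1 mRNA fell from 9.26 to 2.91 FPKM in MV3, from 13.1 to 4.14 in ES2, from 11.1 to 2.78 in PANC1 and from 39.7 to 15.6 in A549 (means, n = 3 each), and its siC and siI1 libraries did not overlap in any line. Libraries held 3105215 to 4553326 reads in A549, 6421764 to 8472851 in ES2 and PANC1, and 15572492 to 20082702 in MV3, so the same FPKM rests on fewer reads in A549. Lineage markers were thin in places. In MV3, SOX10, TYR, DCT and S100B were at 0 in every library and MITF reached at most 0.337 FPKM. In ES2, PAX8 reached at most 0.262 FPKM, with KRT7 at 100.2 to 160 FPKM. In A549, NKX2-1 and SFTPB were at 0 beside KRT8 at 235 to 535 FPKM, and PANC1 had KRT19 at 547 to 879 FPKM and PDX1 at 1.46 to 2.22, but KRT7 at only 1.83 to 3.59 and MUC1 at most at 1.121. Markers of one line also appeared in another, with MITF at 6.53 to 7.33 FPKM in PANC1 and PAX8 at 1.05 to 1.67 in MV3. The leukocyte marker PTPRC was at most 0.0332 FPKM in any library. In these bulk samples, fewer cells that make a transcript and less of it per cell cannot be told apart.

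In the control cells, MYC was the most abundant member in every line. Its level was 57.1 ± 1.81 FPKM in ES2, 42.4 ± 3.33 in A549, 22.0 ± 0.652 in PANC1 and 18.3 ± 0.548 in MV3 (SD, n = 3 each). Each table was normalised on its own, so these levels stand side by side without a test. MAX, the partner that every MYC dimer needs, was next after MYC in MV3 at 15.4 ± 0.323 FPKM and stood at 3.56 ± 0.744 in PANC1. In MV3, MAX thus stood close below MYC, whereas in PANC1 it ranked below MLX, MGA, MXD4 and MYCBP. MLX lay at 9.56 to 12.1 FPKM in control means of the 4 lines, and its range overlapped that of MAX in A549 and ES2. MXD4 was the most abundant of the MXD and MNT repressors in A549, MV3 and PANC1. MXI1 led them in ES2, at 5.59 ± 0.959 against 4.17 ± 0.376 FPKM for MXD4 (SD, n = 3 each), without overlap of the libraries. MXD1 (1.51 to 2.16 FPKM) was the lowest member in ES2 and MV3, and MXD3 (1.22 to 4.22 FPKM) in A549 and PANC1. The A549 libraries of MXI1, MXD1 and MXD3 overlapped from one to the next.

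**Figure D1:**
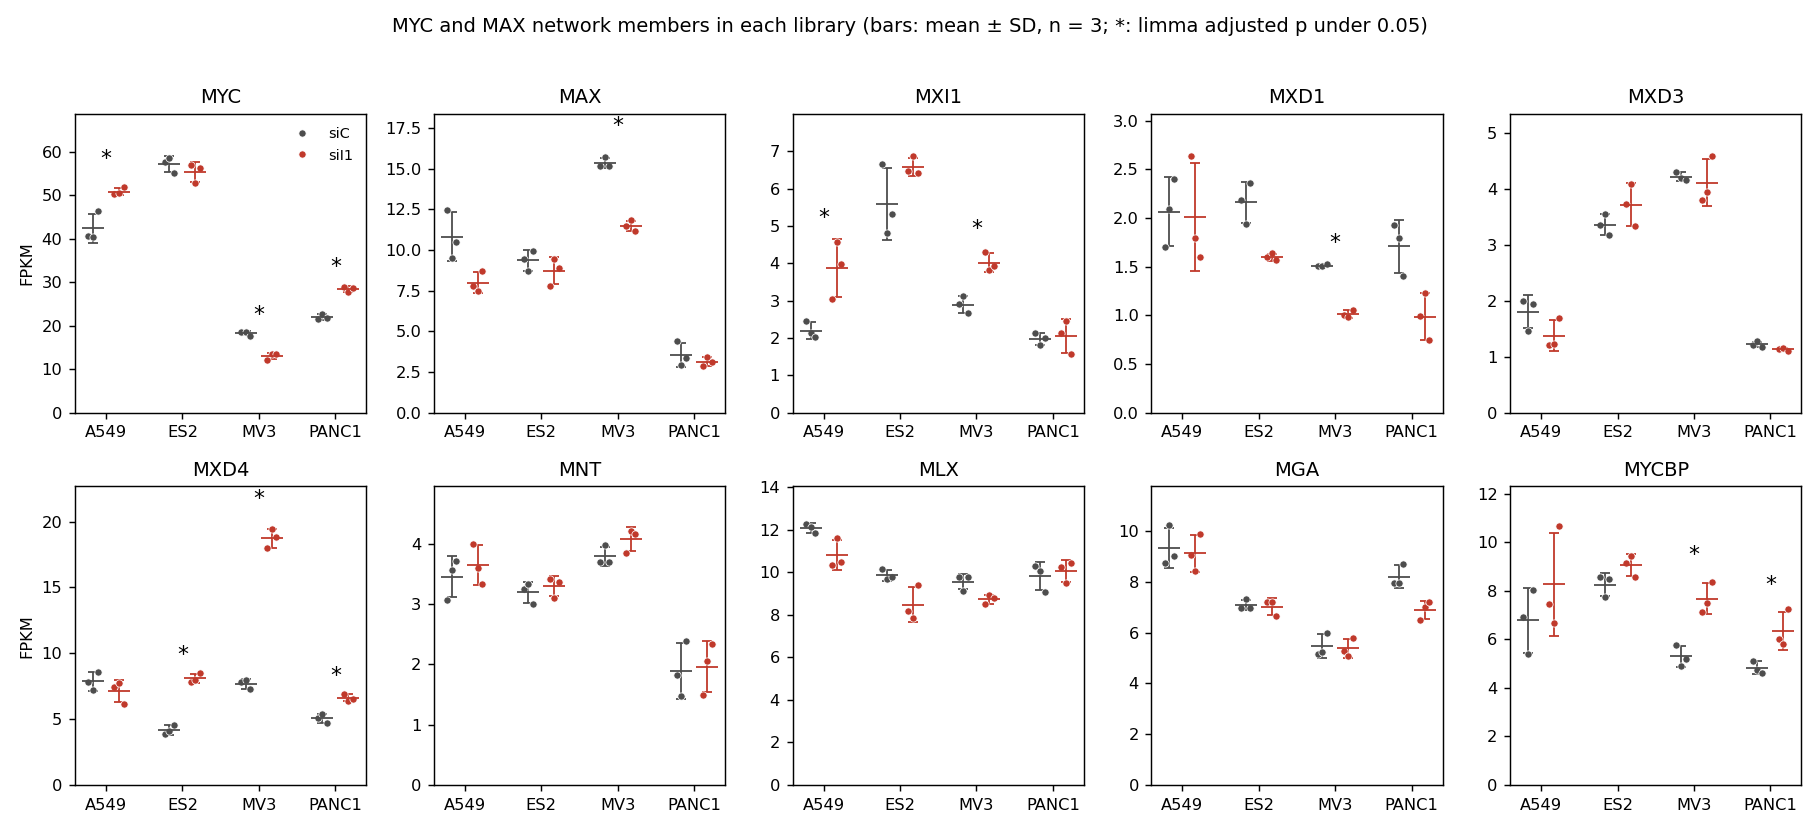
FPKM of the 10 members in each of the 24 libraries, with 1 panel per gene and a linear axis from 0. Points are libraries (grey siC, red siI1), bars the mean ± SD of 3, and an asterisk marks a limma adjusted p under 0.05. MXD4 rose from 7.67 to 18.7 FPKM in MV3, and MYC was higher in A549, lower in MV3 and higher in PANC1. In PANC1, scaling to the same sum of FPKM turns the sign of MYC to a change that was not called.

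MYC (ENSG00000136997, chromosome 8, plus strand) moved in different directions. It was lower after knockdown in MV3, higher in PANC1 and A549, and not called in ES2. In MV3 the siC libraries had 18.6, 18.7 and 17.7 FPKM and the siI1 libraries 12.2, 13.5 and 13.5. All siI1 libraries lay below all siC libraries, and the change was -0.48 ± 0.05 (limma adjusted p 0.000995), a ratio of means of 0.712. In PANC1 the siC libraries had 21.5, 22.7 and 21.7 FPKM and the siI1 libraries 29.0, 27.8 and 28.8. The groups were again separate, but siI1 was the higher one, by 0.37 ± 0.05 (limma adjusted p 0.00428). The direction flips to -0.37, which was not called (limma adjusted p 0.0778), when libraries are scaled to the same sum of FPKM. That scaling moves the median of all genes in PANC1 to -0.68, and relative to this median MYC was higher by 0.30, against 0.40 in the scaling used here. A single small RNA, RN7SL2, took 50.1% to 56.2% of the FPKM sum in PANC1 siC and 62.0% to 64.6% in siI1, and its part in the PANC1 results was not tested. Other PANC1 values are given in the scaling of the deposited values. In A549 the siC libraries had 40.7, 40.4 and 46.3 FPKM and the siI1 libraries 50.2, 50.5 and 51.8. The siC library of replicate 3 was nearest to the siI1 group, the groups did not overlap, and the change of 0.26 ± 0.06 was close to the threshold (limma adjusted p 0.0464). That call was lost when any A549 library other than siC replicate 3 was left out, with limma adjusted p from 0.11 to 0.139. In ES2 the siC libraries had 57.7, 58.5 and 55.1 FPKM and the siI1 libraries 57.0, 52.8 and 56.3. These overlapped, and the change was -0.04 ± 0.05 (limma adjusted p 0.551). MYC rested on 465 to 1428 reads per library over all lines.

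MAX (ENSG00000125952, chromosome 14, 65006174 to 65102695, minus strand), the common dimer partner, was lower in MV3. There the siC libraries had 15.1, 15.7 and 15.2 FPKM and the siI1 libraries 11.5, 11.8 and 11.2. The groups were well apart, with a change of -0.40 ± 0.04 (limma adjusted p 0.000513), so that MYC and MAX were both lower in this line. A549 gave a like size, -0.41 ± 0.12, with the siC libraries at 12.5, 9.53 and 10.5 FPKM and the siI1 libraries at 7.79, 7.50 and 8.73. The groups were separate, but siC spread widely, and the limma adjusted p was 0.0702. MAX was called lower in A549 with voom on reads (limma adjusted p 0.00407) and with the same sum of FPKM (0.0464), and not under the other alternatives. In ES2 (-0.10 ± 0.09, limma adjusted p 0.48) and PANC1 (-0.14 ± 0.15, limma adjusted p 0.529) siC and siI1 libraries overlapped. On the opposite strand, exons of FNTB share 822 of the 6257 exonic bases of MAX in GENCODE release 44. Whether reads were counted by strand is not given in the sources used here, so MAX reads could include some of FNTB.

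Of the repressors, MXD4 (ENSG00000123933, chromosome 4, 2247432 to 2262109, minus strand) moved most, and in MV3 it was the largest change of any member. The siC libraries had 7.80, 7.94 and 7.26 FPKM there and the siI1 libraries 18.0, 19.4 and 18.8. The gap between the groups exceeded the whole level of siC, the ratio of means was 2.44, and the change was 1.24 ± 0.05 (limma adjusted p 7.12e-05). In ES2 the siC libraries had 3.84, 4.08 and 4.58 FPKM and the siI1 libraries 7.83, 7.96 and 8.47. This was a rise of 0.88 ± 0.08 (limma adjusted p 0.00104), a ratio of means of 1.94, in a line in which MYC was not called. In PANC1 the siC libraries had 5.08, 5.38 and 4.69 FPKM and the siI1 libraries 6.94, 6.41 and 6.52. The groups were separate and MXD4 was called higher (0.36 ± 0.08, limma adjusted p 0.0182). However, without siC replicate 1 or 3, or without siI1 replicate 1 or 3, the limma adjusted p was 0.052 to 0.0668. With the same sum of FPKM the change was -0.33 and not called (limma adjusted p 0.119). In A549 the siC libraries had 7.82, 7.19 and 8.60 FPKM and the siI1 libraries 7.44, 7.73 and 6.16. They overlapped, with a change of -0.14 ± 0.11 (limma adjusted p 0.498).

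MXI1 (ENSG00000119950, chromosome 10, 110207605 to 110287365, plus strand), another repressor of the family, was higher in MV3 and A549. In MV3 the siC libraries had 2.90, 3.12 and 2.67 FPKM and the siI1 libraries 4.30, 3.82 and 3.92. The groups were separate (0.41 ± 0.08, limma adjusted p 0.0073). In A549 the siC libraries had 2.45, 2.13 and 2.03 FPKM and the siI1 libraries 3.04, 4.58 and 3.98, a change of 0.68 ± 0.17 (limma adjusted p 0.0486). The siI1 libraries spread over a wide range, and only 39 to 96 reads per library stood behind this value. The A549 call was lost when any library other than siI1 replicate 1 was left out (limma adjusted p 0.106 to 0.144). In ES2 (0.23 ± 0.12, limma adjusted p 0.224) and PANC1 (0.03 ± 0.16, limma adjusted p 0.922) siC and siI1 libraries overlapped.

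MXD1 (ENSG00000059728, chromosome 2, 69897688 to 69942945, plus strand), the founding member of the family, was lower in MV3. In MV3 the siC libraries had 1.51, 1.51 and 1.52 FPKM and the siI1 libraries 1.00, 0.987 and 1.06. It was called lower there (-0.41 ± 0.09, limma adjusted p 0.015), and the call was lost without siC replicate 2 (limma adjusted p 0.0506) and with a replicate block (0.0576). The siI1 libraries were also below all siC libraries in ES2 (2.18, 1.94 and 2.36 FPKM against 1.6, 1.64 and 1.57) and in PANC1 (1.92, 1.79 and 1.41 against 0.990, 1.23 and 0.744). Neither was called, with -0.34 ± 0.11 in ES2 (limma adjusted p 0.078) and -0.58 ± 0.19 in PANC1 (limma adjusted p 0.0682), on 30 to 108 reads per library. With voom on reads both were called lower (limma adjusted p 0.0242 in ES2 and 0.00873 in PANC1). In A549 MXD1 overlapped (-0.04 ± 0.21, limma adjusted p 0.93). In MV3, the 3 family members that were called thus split, with MXD4 and MXI1 higher and MXD1 lower.

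MXD3 and MNT were not called in any line. MXD3 (ENSG00000213347, chromosome 5, 177301461 to 177312757, minus strand), the member linked to dividing cells, changed by 0.12 in ES2 and by -0.04, -0.08 and -0.29 in MV3, PANC1 and A549, with limma adjusted p from 0.413 to 0.737. In PANC1 the siI1 libraries of MXD3 lay below all siC libraries, at a change of only -0.08 ± 0.14. Its exons share 926 bases with RAB24 on the same strand and 1148 with PRELID1 on the other, out of 4743, so reads could be split between these genes. MNT (ENSG00000070444, chromosome 17, 2384073 to 2401104, minus strand), the broadly made MAX-binding repressor, changed by 0.04 to 0.09 in the 4 lines, and its siC and siI1 libraries overlapped in each. Its level in control means lay between 1.89 FPKM in PANC1 and 3.79 in MV3.

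MLX (ENSG00000108788, chromosome 17, 42567072 to 42573239, plus strand), the MAX-like dimer partner, was not called in any line either. Its siI1 libraries lay below all siC libraries in A549 (-0.15 ± 0.07), ES2 (-0.21 ± 0.08) and MV3 (-0.12 ± 0.04), which is a description only. The limma adjusted p was 0.211, 0.104 and 0.0688. In PANC1 they overlapped (0.04 ± 0.07, limma adjusted p 0.769). MLX shares 775 of 4255 exonic bases with PSMC3IP on the opposite strand.

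MGA (ENSG00000174197, chromosome 15, 41621134 to 41773081, plus strand), a very large protein that joins MAX to a Polycomb complex, changed by -0.03 in A549 and by -0.01 and -0.02 in ES2 and MV3. In PANC1 the siC libraries had 7.98, 7.95 and 8.73 FPKM and the siI1 libraries 6.51, 7.01 and 7.21. These did not overlap, and the change of -0.23 ± 0.07 was just outside the threshold (limma adjusted p 0.0581). MGA was called lower there with a minimum of 1 FPKM (limma adjusted p 0.0467) and with voom on reads (0.0151). The same held with scaling to total reads (0.0227) and to the same sum of FPKM (0.00445).

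MYCBP (ENSG00000214114, chromosome 1, 38862493 to 38873368, minus strand), which binds the MYC protein, was higher in MV3 and PANC1. It shares 466 of its 2773 exonic bases with another protein-coding gene on the same strand, ENSG00000274944, so reads could be split between them. In MV3 the siC libraries had 5.77, 4.91 and 5.21 FPKM and the siI1 libraries 7.13, 7.52 and 8.38, a change of 0.50 ± 0.08 (limma adjusted p 0.00447). In PANC1 the siC libraries had 5.12, 4.76 and 4.62 FPKM and the siI1 libraries 6.02, 5.80 and 7.25, a change of 0.36 ± 0.10 (limma adjusted p 0.0444). With the same sum of FPKM the change was -0.34 and not called (limma adjusted p 0.181). The groups were separate in both lines, but the PANC1 call was lost when any 1 of its 6 libraries was left out (limma adjusted p 0.0599 to 0.127). In ES2 MYCBP changed by 0.13 ± 0.07 (limma adjusted p 0.239), without overlap of the libraries. In A549 it changed by 0.26 ± 0.21 (limma adjusted p 0.496), where siC and siI1 libraries overlapped.

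Counted by line, 3 of the 10 members were lower in MV3 (MYC, MAX, MXD1) and 3 higher (MXI1, MXD4, MYCBP), where 19.5% of all genes tested were lower and 16.3% higher. In PANC1, 3 were higher (MYC, MXD4, MYCBP) and 0 lower, against 11.3% and 13.4% of all genes. The sign of all 3 turns with scaling to the same sum of FPKM, under which 98.9% of all PANC1 calls were lower instead of 54.3%. None of the 3 was called under that scaling (limma adjusted p 0.0778, 0.119 and 0.181). Relative to the median of all genes there, they were higher by 0.30, 0.34 and 0.34. In ES2 1 member, MXD4, was higher and 0 lower, against 10.5% and 13.0%. In A549 2 members were higher (MYC, MXI1) and 0 lower, against 5.93% and 7.83%. All 10 members passed the minimum of 0.5 FPKM in every line, so none was left untested. The members' median changes in A549, ES2, MV3 and PANC1 were -0.04, 0.01, -0.03 and 0.03, beside -0.01, -0.02, 0.01 and -0.04 for all genes tested.

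**Figure D2:**
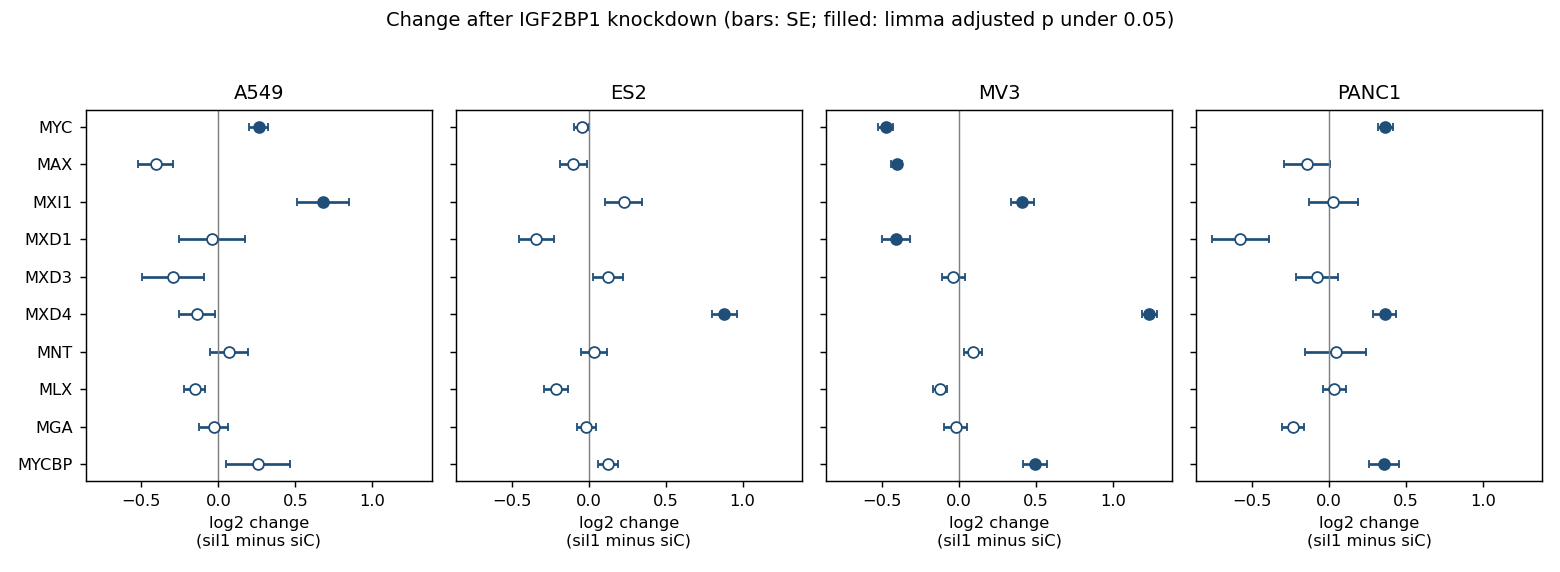
Change of each member after knockdown on the log2(FPKM + 0.5) scale (horizontal axis, siI1 minus siC), with 1 panel per line. Points are limma estimates, bars their standard errors, and filled points have a limma adjusted p under 0.05. MXD4 reaches 1.24 in MV3 and 0.88 in ES2, and MYC spans -0.48 in MV3 to 0.37 in PANC1. That PANC1 value becomes -0.37, which was not called, when libraries are scaled to the same sum of FPKM.

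Whether a member responded differently in different lines was tested by limma over all 24 libraries. MYC was chosen knowing that its direction differs between lines, so its differences are a description with no test. Its response in MV3 was lower than in PANC1 by 0.84, lower than in A549 (-0.74) and lower than in ES2 (-0.43), and PANC1 and A549 lay 0.11 apart. The place of PANC1 depends on the scaling, since with the same sum of FPKM MYC changed by -0.37 there, which was not called. In that scaling MYC changed by -0.49 in MV3 and 0.23 in A549. Of the other 9 members, MXD4 (F-test adjusted p 1.58e-07) and MXI1 (0.0463) passed, where 45.0% of the 12816 genes tested in all lines did so. For MXD4 the 95% intervals of all 6 pairwise differences between lines left out 0. The largest was MV3 minus A549 at 1.38 (1.137 to 1.614). The response in MV3 exceeded that in ES2 by 0.35 (0.11 to 0.59), and that in ES2 exceeded A549 by 1.02 (0.78 to 1.26). PANC1 minus ES2 was -0.52 (-0.76 to -0.28) in the scaling used here, with a PANC1 change of -0.33 under the same sum of FPKM. MXI1 differed between PANC1 and A549 by -0.65 (-1.06 to -0.25) and between ES2 and A549 by -0.45 (-0.86 to -0.05), and the intervals of its other 4 pairs held 0. It rested on 39 to 96 reads per library in A549 and 46 to 77 in PANC1. The F-test of MXI1 was lost when any of many single libraries in the 4 lines was left out, with adjusted p up to 0.108. It was also lost with a replicate block (F-test adjusted p 0.124). For MNT the F-test gave an adjusted p of 0.992, and for MYCBP 0.406, although MYCBP was called in MV3 and PANC1 and not in A549 or ES2. Cochran's Q, which weights each line's change by its own SE, gave an adjusted p of 0.0291 for MYCBP. It gave 0.033 for MAX, against 0.185 by the F-test, and 0.0694 for MXI1. Which members pass beside MXD4 thus depends on the test used.

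Because the repressors and MYC compete for MAX, their messages were also set against each other within each library. The summed FPKM of MXI1, MXD1, MXD3, MXD4 and MNT per 100 FPKM of MYC was 109 ± 1.35 in MV3 siC and 245 ± 8.08 in MV3 siI1 (SD, n = 3 each). In ES2 it was 32.4 ± 1.83 and 42.1 ± 2.37. In both lines every siI1 library lay above every siC library. In A549 the ratio was 41.0 ± 0.758 in siC and 35.5 ± 2.73 in siI1, and in PANC1 53.9 ± 2.51 and 44.8 ± 2.81, with every siI1 library below every siC library. MXD4 made up 38.2% ± 0.495 of that repressor sum in MV3 siC and 58.6% ± 1.18 in MV3 siI1, and 22.6% ± 2.49 against 34.8% ± 1.6 in ES2 (SD, n = 3 each). In PANC1 its share was 42.6% ± 2.91 against 52.0% ± 3.44, and in A549 it was lower in siI1, at 39.4% ± 2.30 against 45.2% ± 1.29 in siC, without overlap of the libraries. MYC per MAX was 1.20 ± 0.0326 in MV3 siC and 1.137 ± 0.0748 in siI1, with overlap, whereas in A549 it was 3.97 ± 0.614 in siC and 6.37 ± 0.405 in siI1, without overlap. These ratios of messages were not tested, and protein was not measured here.

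**Figure D3:**
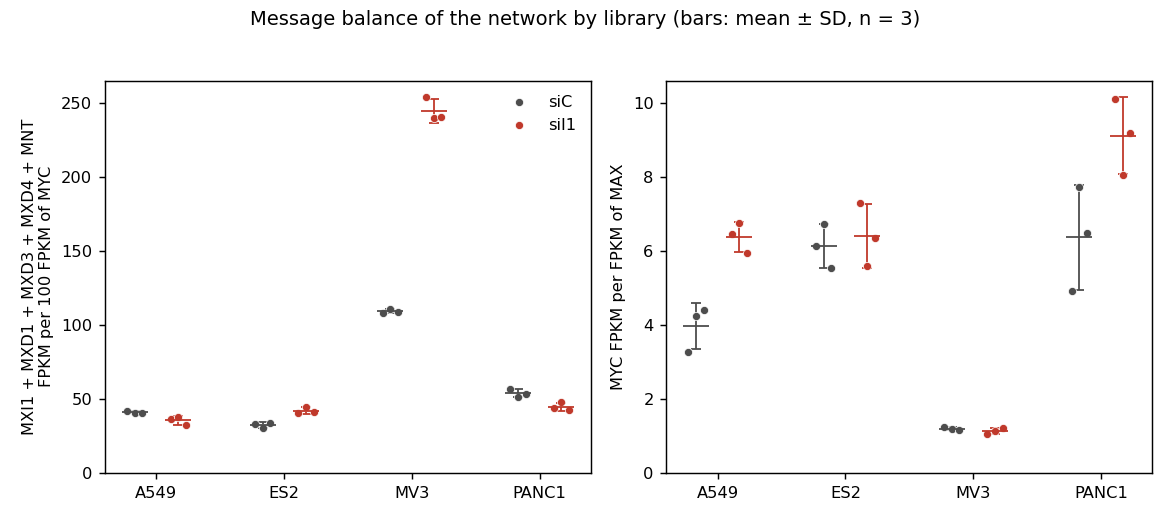
Left, summed FPKM of MXI1, MXD1, MXD3, MXD4 and MNT per 100 FPKM of MYC in each library; right, MYC FPKM per FPKM of MAX. Axes are linear from 0, points are libraries (grey siC, red siI1) and bars the mean ± SD of 3. The repressor ratio is higher after knockdown in MV3 and ES2 and lower in A549 and PANC1.

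Genes that MYC is known to activate were then counted, from 3 lists with 61 genes in all, of which 60 were tested in each line. MV3 had 51 lower and 1 higher, and ES2 had 42 lower and 2 higher. A549 had 10 lower and 8 higher. PANC1 had 20 lower and 5 higher, which became 54 and 0 when libraries were scaled to the same sum of FPKM. Of all genes tested, 19.5% were lower and 16.3% higher in MV3, 13.0% and 10.5% in ES2, 7.83% and 5.93% in A549, and 13.4% and 11.3% in PANC1. The median change of the list was -0.44 in MV3, -0.38 in ES2, -0.19 in PANC1 and 0.01 in A549. Set beside MYC itself, the lists were mostly lower in MV3, where MYC was lower, and in ES2, where MYC was not called. In PANC1, MYC was higher in the scaling used here, while more of these genes were lower than higher. The difference between lines was not tested for the lists. When single libraries were left out, PANC1 had 11 to 16 lower, against 20 with all libraries. A549 then had 4 to 7 lower and 4 to 7 higher, against 10 and 8. Over all genes the lower calls fell as well, to 1227 to 1955 from 2131 in PANC1 and to 752 to 993 from 1441 in A549.

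The nucleolar list holds genes of ribosome assembly. In MV3, 29 of 30 were lower and in ES2, 24 of 30, with 0 higher in either, against 8 lower and 4 higher in PANC1 and 4 lower and 1 higher in A549. NPM1, the abundant nucleolar chaperone nucleophosmin, fell from 208 ± 6.99 to 130 ± 2.04 FPKM in MV3, from 450 ± 45.4 to 321 ± 8.54 in ES2 and from 229 ± 15.7 to 148 ± 5.92 in PANC1 (SD, n = 3 each). BYSL, needed for the small ribosomal subunit, changed by -0.76 in ES2 and -0.69 in MV3 (limma adjusted p 0.00936 and 0.0007), and by 0.13 in PANC1 (limma adjusted p 0.484). RRS1, an assembly factor of the large subunit, changed by -0.69 in MV3 and -0.56 in ES2 (limma adjusted p 0.000291 and 0.0165).

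Of the 22 metabolic genes, 16 were lower in MV3, 14 in ES2, 7 in PANC1 and 4 in A549, and 1, 1, 1 and 6 were higher. SLC7A5, the large neutral amino acid transporter, fell from 158 ± 13.8 to 48.5 ± 1.97 FPKM in A549, from 30.2 ± 1.45 to 12.7 ± 1.80 in ES2 and from 32.8 ± 2.24 to 16.5 ± 0.761 in MV3 (SD, n = 3 each). In PANC1 it went from 80.3 ± 9.5 to 93.0 ± 2.33 FPKM and was not called (limma adjusted p 0.125). LDHA, which makes lactate, rose in A549 by 0.73 ± 0.07 (limma adjusted p 0.00189) and fell in ES2 by 0.22 on the log2 scale (limma adjusted p 0.0177), and in MV3 and PANC1 it was not called (-0.09 and 0.07). Of the 8 cell cycle genes tested in each line, 6 were lower in MV3, 5 in PANC1, 4 in ES2 and 2 in A549. Of all genes tested, 19.5%, 13.4%, 13.0% and 7.83% were lower in the same order. In ES2 and A549, 1 each was higher, against 10.5% and 5.93% of all genes. CDC25A, the phosphatase that opens the way into S phase, changed by -0.96 in MV3, -0.62 in ES2 and -0.31 in PANC1 (limma adjusted p 0.000223, 0.0132 and 0.0228) and by 0.04 in A549 (limma adjusted p 0.904).

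Of the 61 genes, 5 were lower in all 4 lines, against 2.51% of all genes tested in all lines. They are NIP7, SHMT2, TFRC, HSPD1 and CDK4, and SHMT2 was singled out after its values were seen. CDK4, the G1 cyclin-dependent kinase with the E-box shown above, changed by -0.47, -0.39, -0.44 and -0.45 in A549, ES2, MV3 and PANC1. HSPD1, the mitochondrial chaperonin, changed by -0.62, -0.95, -0.81 and -1.09 in the same order. TFRC, the transferrin receptor, changed by -0.29, -0.55, -1.0 and -0.37. These genes were picked as lower in all 4 lines, so their direction in each line follows from that choice.

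**Figure D4:**
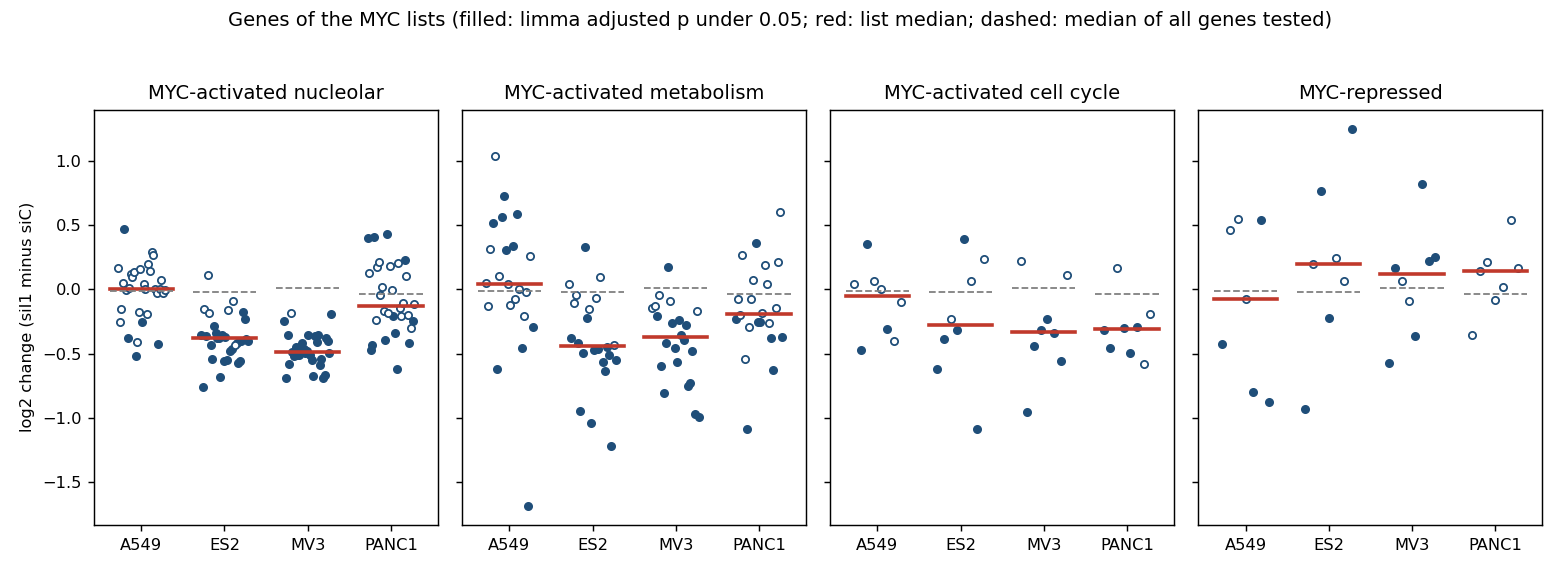
Change of each tested gene of the MYC lists on the log2(FPKM + 0.5) scale (vertical axis, siI1 minus siC) in the 4 lines, with 1 panel per list. Filled points have a limma adjusted p under 0.05, red lines are list medians and dashed lines the median of all genes tested. The nucleolar list lies almost wholly below 0 in MV3 (29 of 30 lower) and ES2 (24 of 30 lower).

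Of the 11 genes that MYC is known to repress, 7 or 8 were tested per line. In MV3, 4 were higher and 2 lower, in ES2, 2 higher and 2 lower, in A549, 1 higher and 3 lower, and in PANC1 0 were called of 7. In MV3 that is 50% higher and 25% lower, against 16.3% and 19.5% of all genes. In ES2 it is 28.6% and 28.6%, against 10.5% and 13.0%, and in A549 14.3% and 42.9%, against 5.93% and 7.83%. In PANC1, 11.3% of all genes were higher and 13.4% lower. CDKN1A, the cell cycle inhibitor p21, was lower in A549 (-0.43), ES2 (-0.94) and MV3 (-0.57), with limma adjusted p of 0.00495, 0.00581 and 0.00582. THBS1, the secreted thrombospondin, rose in ES2 from 45.3 ± 2.28 to 109 ± 3.27 FPKM and fell in A549 from 32.2 ± 2.0 to 17.3 ± 1.26 (SD, n = 3 each). NDRG1, a stress-induced gene, was higher in A549 (0.54) and MV3 (0.22), and GAS1, a growth arrest gene, was higher in MV3 (0.83).

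The targets of MLX with MLXIP were followed through TXNIP and ARRDC4, arrestin-like proteins that limit glucose uptake. TXNIP rose from 12.5 to 26.1 FPKM in ES2 (1.04 ± 0.05, limma adjusted p 0.000129) and from 1.74 to 2.64 FPKM in MV3 (0.50 ± 0.14, limma adjusted p 0.032). In PANC1 it was not called (-0.07 ± 0.16), and in A549 both genes were under the minimum. ARRDC4 was low, at 0.245 and 0.882 FPKM in ES2 siC and siI1, and it passed the minimum there only through the siI1 libraries, so these values are a description with no test. MLXIP itself changed by -0.57 in A549, where it was called lower, and by 0.47 in PANC1, where it was called higher (limma adjusted p 0.0149). In ES2 (0.28) and MV3 (-0.12) it was not called. The further MYC genes MYCN and MYCL and the liver-type MLXIPL were at 0 or at most 0.363 FPKM in group means.

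Cofactors of the network were counted next. Of 14 MYC coactivators, 2 were lower in PANC1, 6 in MV3 and 5 each in ES2 and A549, and 1, SUPT5H in PANC1, was higher. The share lower was 14.3% in PANC1, near the 13.4% of all genes, and 42.9% in MV3, against 19.5%. In ES2 and A549 it was 35.7% each, against 13.0% and 7.83%. ACTL6A, an actin-like subunit of chromatin-modifying complexes, was lower in all 4 lines, with -0.31, -0.29, -0.39 and -0.48 in A549, ES2, MV3 and PANC1. RUVBL1, an ATPase of the same complexes, was lower in ES2 (-0.49) and MV3 (-0.30). Of 10 SIN3 corepressor genes, 2 were lower in each line and 1 each was higher in A549, MV3 and PANC1. In MV3 that is about the share of all genes lower there (19.5%). In A549, ES2 and PANC1 7.83%, 13.0% and 13.4% of all genes were lower. Of all genes, 5.93%, 16.3% and 11.3% were higher in A549, MV3 and PANC1. SUDS3, a structural subunit of SIN3, was the 1 lower in all 4 lines, with -0.51, -0.41, -0.34 and -0.65 in that order. SIN3B, a scaffold of that complex, was lower in ES2 (-0.32) and higher in PANC1 (0.59). Of 8 partners of MGA in its Polycomb complex, 1, 0, 3 and 1 were lower and 2, 1, 2 and 2 higher in the same line order. The shares lower were 12.5%, 0%, 37.5% and 12.5%, against 7.83%, 13.0%, 19.5% and 13.4% of all genes. The shares higher were 25%, 12.5%, 25% and 25%, against 5.93%, 10.5%, 16.3% and 11.3%. L3MBTL2, which reads chromatin there, was lower in A549 (-0.59) and MV3 (-0.29).

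Of 10 genes that control the MYC protein, 5 were lower in MV3, 4 in ES2, 3 in PANC1 and 2 in A549. Of all genes tested, 19.5%, 13.0%, 13.4% and 7.83% were lower in the same order. In PANC1, 1 of the 10 was higher, against 11.3% of all genes, and 0 were higher in the other lines. SKP2, a ubiquitin ligase subunit for MYC, was lower in all 4 lines, with -0.62, -0.38, -0.47 and -0.47. KIAA1524, which encodes the phosphatase inhibitor CIP2A that stabilises MYC, was lower in MV3 (-0.39, limma adjusted p 0.00185) and PANC1 (-0.90, limma adjusted p 0.00165). Of the 4 proteins known to sit with IGF2BP1 on the MYC mRNA, HNRNPU, SYNCRIP and DHX9 were lower in ES2, MV3 and PANC1, and YBX1 was higher in A549 (0.32, limma adjusted p 0.0135). SYNCRIP went from 26.2 to 13.9 FPKM in PANC1, its largest change (-0.89 ± 0.06, limma adjusted p 0.000857). PVT1, the long RNA whose gene lies beside MYC, was not called in any line, with changes of -0.05 to 0.10. CASC11, whose exons share 194 bases with MYC on the other strand, had at most 6 reads in any library.

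By pattern, the genes most like MYC were found by Pearson correlation over the 24 libraries after each line's mean was removed, among 8902 protein-coding genes. They were SQSTM1 (r = 0.901), FTL (0.894), FASN (0.894), PGD (0.873) and UPP1 (0.866). All libraries of a line share their processing, and the correlation is a description. The genes were picked for this likeness in the same libraries. Their directions follow from that choice and are a description with no test. SQSTM1, an autophagy receptor, changed by -0.84 in MV3, -0.33 in ES2, 0.33 in PANC1 and 0.25 in A549. FTL, the ferritin light chain, was higher in A549 (0.32) and PANC1 (0.37) and lower in MV3 (-0.31). FASN and PGD, enzymes of fatty acid synthesis and of the pentose phosphate pathway, were lower in MV3 (-0.37 and -0.57) and higher in PANC1 (0.26 and 0.30). Of the other members, MXD4 had the lowest value (r = -0.47) and MGA the next (-0.37), and MLX the highest (0.19).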

How the data were processed

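Total RNA of A549, ES2, MV3 and PANC1 cells was sequenced in 24 libraries. Per the labels and the study's methods, the authors trimmed reads with Cutadapt 1.14, aligned them to hg38 with HISAT2 2.1.0 and counted them with featureCounts 1.5.3. SAMtools 1.5 is also listed, and edgeR 3.30.3 with TMM served their own test. The deposited values are FPKM, normalised by the authors within each line. The unit was worked out from the values, since 100% of them were whole reads times a step fixed per library. The authors' deposited log2 fold changes, p-values and FDR were not used.

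Members and lists were chosen with earlier results of these data known. Genes averaging 0.5 FPKM or more over a line's libraries were tested per line with limma 3.58.1 in R 4.3.3 on log2(FPKM + 0.5), with an intensity trend and Benjamini-Hochberg adjustment over all genes tested (threshold 0.05, two-sided). The pseudocount understates changes of low genes. Between lines, all 24 libraries were fitted together. Named genes are the members, up to 4 genes per list with the largest called rise or fall in a line, all genes of lists of up to 4, and the 5 most like MYC. Over 24 pairs of replicates, the chi-square per gene was 1.54 to 15.1, above sampling noise, so all libraries were counted. Genes were located with GENCODE release 44. The fit was tested on simulated data. Python 3.11.15, pandas 2.3.3 and matplotlib 3.10.9 were used. Alternatives were other pseudocounts (0.1, 1), filters (none, 1 FPKM), scalings, spread models, reads with voom, a replicate block and leaving out each library. For the difference between lines, Cochran's Q was a further alternative. Some marker and list genes are not reported here.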

Additional observations from a re-analysis of the deposited data

Results flagged for a closer look

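The response to IGF2BP1 knockdown differed between the 4 lines for MXD4 and MXI1, by the test of the difference itself (limma F-test over all 24 libraries, adjusted over 12816 genes). MYC was chosen knowing that its direction differs between lines, so its F-test adjusted p of 2.26e-07 is a description with no test. Its changes were 0.26, -0.04, -0.48 and 0.37 in A549, ES2, MV3 and PANC1. For MXD4 the adjusted p was 1.58e-07, with changes of -0.14, 0.88, 1.24 and 0.36 in the same order. For MXI1 the adjusted p was 0.0463, with changes of 0.68, 0.23, 0.41 and 0.03. Of all genes tested in all lines, 45.0% passed the same test.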

How the results depend on the processing

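MYC and MAX lower in MV3, MXI1 and MYCBP higher in MV3, and MXD4 higher in ES2 and MV3 were called under every alternative run. Scaling libraries to the same sum of FPKM, in which the single small RNA RN7SL2 takes 50.1% to 56.2% in PANC1 siC and 62.0% to 64.6% in siI1, moved the median of all genes there from -0.04 to -0.68. It gave PANC1 changes of -0.37 for MYC, -0.33 for MXD4 and -0.34 for MYCBP. For MXI1 it gave -0.59, for MNT -0.56 and for MLX -0.68, and of these only MLX was called (limma adjusted p 0.0106). MXD1 (-1.13, limma adjusted p 0.00481), MGA (-0.94, 0.00445) and MAX (-0.80, 0.0162) were called lower there too. Of the 15846 genes tested in PANC1, 8844 were lower under this scaling. It also gave 54 MYC-activated genes lower and 0 higher there, and 98.9% of calls lower instead of 54.3%. In ES2 it gave 0.026 for MYC and 0.052 for MGA, with 44.4% of calls lower instead of 55.4%. Under it 9 members differed between lines instead of 3, with MYC counted in both. The share of all genes that differed under this scaling is not given here, so that count is a description. Total reads without TMM, an alternative chosen after seeing the data, gave in PANC1 -0.11 for MXI1, -0.089 for MNT and -0.12 for MLX, 33 MYC-activated genes lower and 3 higher, and a median of -0.18 with 76.9% of calls lower. The PANC1 calls of MXD4 (0.21, limma adjusted p 0.0939) and MYCBP (0.21, 0.243) were lost there, and MYC was 0.20 (0.0489). It gave 0.014 for MGA in ES2, and in MV3 0.014 for MXD3 and 0.032 for MGA, with 44.04% of calls lower instead of 54.5%. The A549 call of MYC was lost with no filter (0.26, limma adjusted p 0.0647), the same sum (0.23, 0.0583) and no intensity trend (0.26, 0.134). Members called in A549 numbered 2, MYC and MXI1, both higher. With a pseudocount of 1 only MYC was called. With the same sum neither was called (MXI1 limma adjusted p 0.0543), and the 1 member called was MAX, which was lower (-0.44, 0.0464). No filter and no trend gave 0. Over all genes, A549 had 1441 lower and 1092 higher of 18411 in the main fit. No filter gave 1209 and 859 of 28750, no trend 1062 and 633, and the same sum 1444 and 757. Without the trend, 2 members were called in ES2, 3 MYC-activated genes were lower in A549, 0 higher in MV3, and 13 lower and 3 higher in PANC1. Over all genes this gave 1876 lower and 1632 higher in ES2, against 2201 and 1772. In MV3 it gave 2996 and 2670, against 3190 and 2663, and in PANC1 1830 and 1499, against 2131 and 1796. With voom on reads, 2 members were called in ES2, 5 in PANC1, and 9 MYC-activated genes were higher in PANC1. Voom also called 2339 genes lower and 1837 higher in A549, against 1441 and 1092. In ES2 it called 2944 and 2414, against 2201 and 1772, and in PANC1 2760 and 2256, against 2131 and 1796.

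Replicate numbers did not pair the samples, with correlations of same-numbered deviations from -0.056 to 0.071. A replicate block gave 0.26 for MYC in A549 (limma adjusted p 0.0921), with 0 members called there and 1 in PANC1. The PANC1 calls of MXD4 (limma adjusted p 0.0501) and MYCBP (0.0909) were lost, and that of MXD1 in MV3 (0.0576). The block left 2 MYC-activated genes lower and 3 higher in A549 and 0 higher in MV3. Over all genes it gave 622 lower and 379 higher in A549, against 1441 and 1092. In PANC1 it gave 1606 and 1381, against 2131 and 1796, and in MV3 2652 and 2053, against 3190 and 2663.

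Leaving out each library in turn gave 0 to 1 members called in A549 and 1 to 2 in ES2. In MV3 it gave 5 to 6 and in PANC1 1 to 2. With MYC counted, 2 to 3 members differed between lines. Calls over all genes mostly fell as well. They were 752 to 993 lower and 502 to 726 higher in A549, against 1441 and 1092 with all libraries. In ES2 they were 1492 to 1703 and 1139 to 1420, against 2201 and 1772. In MV3 they were 2510 to 3043 and 1930 to 2553, against 3190 and 2663. In PANC1 they were 1227 to 1955 and 1014 to 1880, against 2131 and 1796. MYC-activated genes were 4 to 7 lower and 4 to 7 higher in A549, 34 to 37 lower in ES2, 49 to 52 lower and 0 to 1 higher in MV3, and 11 to 16 lower and 2 to 8 higher in PANC1. Changes ranged in A549 from 0.23 to 0.32 for MYC, -0.21 to 0.076 for MXD1, -0.0029 to 0.12 for MNT and -0.087 to 0.034 for MGA. In ES2 they ranged from -0.0014 to 0.074 for MNT and -0.034 to 0.022 for MGA, and in MV3 from -0.11 to 0.011 for MXD3 and -0.072 to 0.041 for MGA. In PANC1 they ranged from -0.086 to 0.17 for MXI1, -0.088 to 0.19 for MNT and -0.018 to 0.075 for MLX. Where no value is given, the cause was not tested. Low read numbers limit MXD1, MXD3 and MXI1 most.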
